A study of Mus musculus with 8 samples.

Results

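Of the 45101 probe sets on the arrays, 13 were examined here that belong to the circadian clock and to the glucocorticoid response. They were chosen by probe set ID, and the list names 10 genes for them. Each array measured RNA from whole blood drawn from the vena cava of a mouse. The CoCl2 group held 4 arrays of mice given cobalt chloride at 200 ng per 100 ml per day, bled after 15 days, and the control group held 4 arrays of mice titled chamber controls. Both groups were kept in room conditions, per the labels. Cobalt chloride blocks the enzymes that mark hypoxia-inducible factors for degradation, so it is used to mimic low oxygen. The labels give no strain, age, sex or hour of bleeding, and do not say that every array came from a different animal. The p-values therefore measure the spread between these arrays.

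The mammalian clock is a feedback loop in which CLOCK and BMAL1 (the product of Arntl) activate genes through E-box sequences, and the PER and CRY proteins made from these genes then repress CLOCK and BMAL1. NR1D1 closes a further loop by repressing Arntl, and DBP carries the rhythm to output genes. Glucocorticoid hormones, which are themselves released in a daily rhythm, bind the glucocorticoid receptor and raise Fkbp5, Tsc22d3 and Per1 in many tissues, leukocytes included.

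Fkbp5 and Cry1 were higher in CoCl2 blood than in control blood, and no member was lower past the threshold. Fkbp5 (probe set 1416125_at) rose by 2.39 on the log2 scale, a fold of 5.24, and Cry1 by 0.88, a fold of 1.84. Per1 stood 0.61 higher with an adjusted p of 0.0519, just short of the threshold of 0.05. The test was limma's moderated test on log2 values with Benjamini-Hochberg adjustment over 22519 probe sets, the upper 50% by mean over the 8 arrays. In this test 8 of the 13 members were included, and 2 of them (25%) passed, whereas 45.2% of all tested probe sets passed. Of all tested probe sets 28.6% passed as higher and 16.5% as lower, so the members' share was not above the background. At an unadjusted p under 0.05 in limma, 4 of the 8 were higher and 0 lower, beside 34.5% higher and 19.7% lower of all tested probe sets. The median log2 difference of the 8 members was 0.43, against 0.19 for all tested probe sets. In the upper 25% of probe sets by mean, which held 5 of the 8, the median was 0.41. The other 5 members, with mean log2 values from 2.29 to 2.70 over the 8 arrays, lay under the minimum of 2.90 and were left out of that test. The member just above this minimum was Per1, at 2.99, and it passed the filter through its CoCl2 arrays, since its control mean was 2.69.

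**Figure D1:**
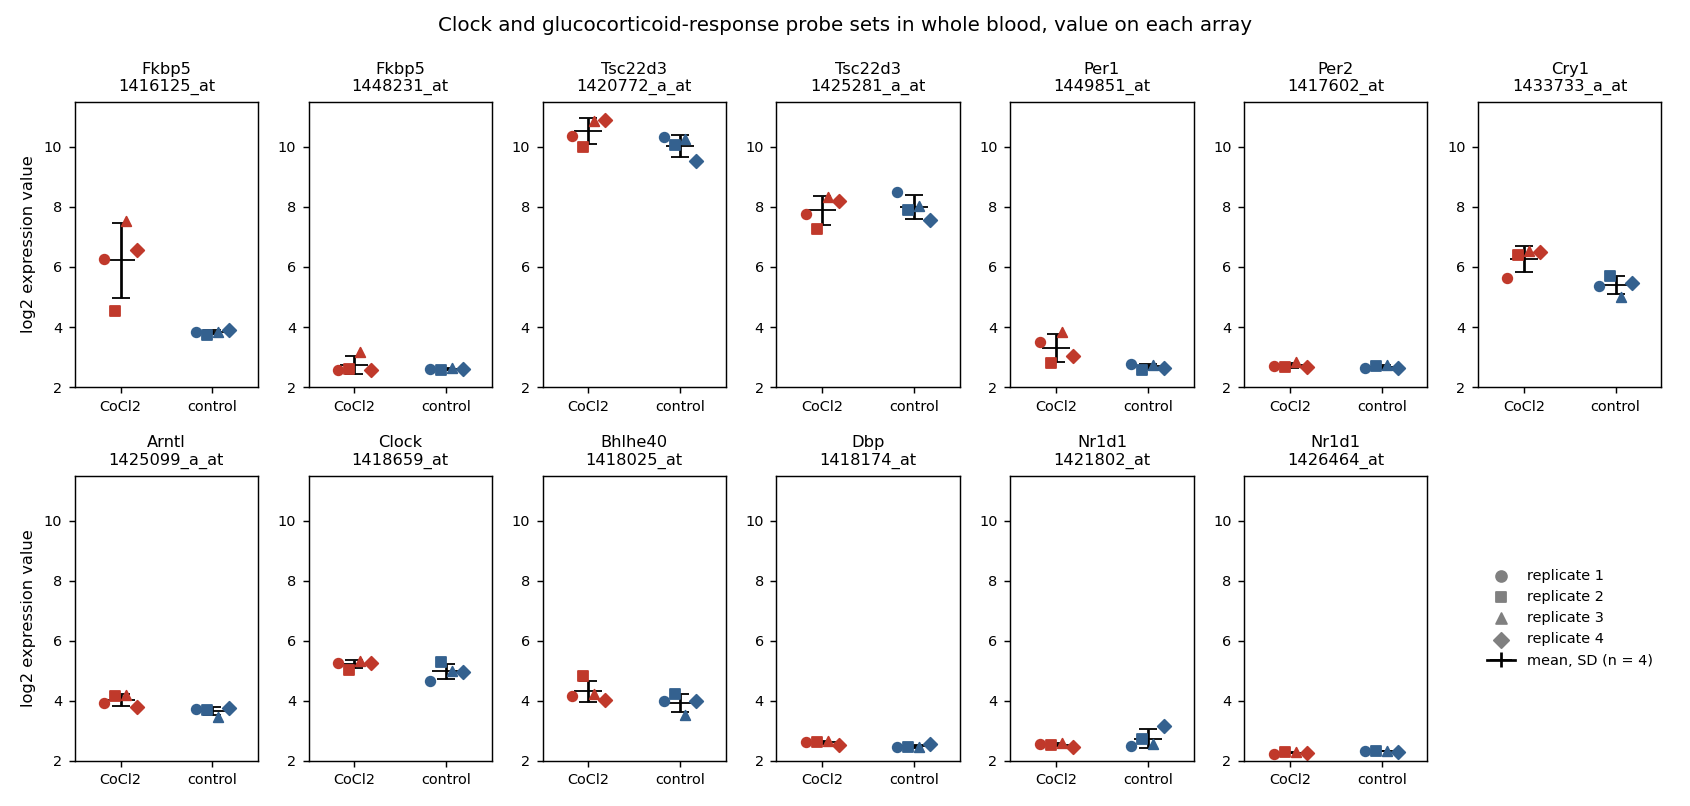
Log2 expression value of each of the 13 probe sets on every array (vertical axis), CoCl2 left and control right in each panel, with symbols for the replicate numbers and bars for the mean and SD of 4 arrays. The Fkbp5 probe set 1416125_at had CoCl2 arrays from 4.54 to 7.54, all above the control arrays at 3.75 to 3.89, while Per2, Dbp and both probe sets listed under Nr1d1 lay near the bottom of the scale in both groups.

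Values were the authors' log2 expression after GCRMA, read back from a table that had lost its decimal points. The median over all mouse probe sets was 2.79 or 2.80 on each CoCl2 array and 2.84 to 2.89 on control arrays. The bacterial RNAs bioB and bioC, added at hybridisation, differed by -1.82 (CoCl2 minus control) on the log2 scale. Centring the arrays on them raised every difference by the size of that shift, so that all 8 members then passed as higher, as did 20501 of all tested probe sets. Each sample title carries an ID number, those of CoCl2 and control samples do not interleave, and no batch is given, so batch and treatment cannot be told apart. The hour of bleeding is not given, and only the control titles name a chamber. A difference in hour or handling therefore cannot be told apart from treatment for these genes. In whole blood, fewer cells of a type and less RNA per cell cannot be told apart either. No table used here pairs other probe sets with genes, so markers of blood cell types and other genes of these pathways were not analysed here, and the part of cell composition in the results was not tested.

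The bases in front of the start sites of the members with the 3 highest differences are shown because each holds an E-box, the sequence that CLOCK and BMAL1 bind. They are RefSeq sequences of build GRCm38.p6, 250 bases that end at the base before the annotated start, written 5′ to 3′ on the strand of the gene. Capitals mark CACGTG, and in Cry1 also the related sequence CACGTT, which is read there on the opposite strand.
Fkbp5, chr17:28486150-28486399, minus strand: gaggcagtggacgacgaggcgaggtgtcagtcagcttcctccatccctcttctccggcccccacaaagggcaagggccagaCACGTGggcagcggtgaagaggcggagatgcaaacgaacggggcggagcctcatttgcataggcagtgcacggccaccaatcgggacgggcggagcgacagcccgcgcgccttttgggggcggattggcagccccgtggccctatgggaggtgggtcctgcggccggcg
Cry1, chr10:85185055-85185304, minus strand: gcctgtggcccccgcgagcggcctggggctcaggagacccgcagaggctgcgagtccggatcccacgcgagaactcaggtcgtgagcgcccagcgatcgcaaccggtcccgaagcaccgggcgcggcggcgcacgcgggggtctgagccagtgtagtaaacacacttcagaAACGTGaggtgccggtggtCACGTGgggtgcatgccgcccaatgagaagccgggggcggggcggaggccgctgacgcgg
Per1, chr11:69098699-69098948, plus strand: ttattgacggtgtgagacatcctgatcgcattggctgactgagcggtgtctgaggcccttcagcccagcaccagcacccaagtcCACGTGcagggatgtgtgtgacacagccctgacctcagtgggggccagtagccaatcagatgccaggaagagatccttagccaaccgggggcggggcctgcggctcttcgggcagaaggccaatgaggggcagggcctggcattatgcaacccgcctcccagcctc
Of the 10 genes, 8 had entries in the promoter table, with 14 start sites in all, and Per2 and Bhlhe40 are named only. CACGTG was found in front of these 3 start sites and none of the other 11, and it occurred in 6.02% of the 32851 promoters of the same length. These 3 were picked by their differences in these data, so the contrast is a description and no test. Per1 did not pass, and it was tested only through its CoCl2 arrays. E-boxes outside these windows were not searched for in any of the genes. The other 11 windows are not independent, since several belong to the same gene and those of Arntl overlap. CACGTG begins 169 bases before the start of Fkbp5, 60 before that of Cry1 and 166 before this start of Per1, and a later start of Per1 has none. CACGTT, in either orientation, was found in Cry1 and Nr1d1 and in 3.85% of all promoters. Every CACGTG also contains ACGTG, the core that hypoxia-inducible factors bind, in both orientations. ACGTG on either strand was in 16.6% of all promoters, and among the members also in those of Dbp and Nr1d1. The full glucocorticoid response element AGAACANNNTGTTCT was in none of the 14 windows and in 0.00913% of all promoters, a rate at which its absence is uninformative. Its left arm AGAACA, on either strand, was found in 1 of 3 Tsc22d3 promoters and in 16.1% of all promoters. TTATGTAA, the D-box bound by DBP, and TGACGTCA, the cAMP response element, were in none of the 14 windows, and in 0.819% and 1.55% of all promoters. These matches describe letters and do not show binding.

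Among the glucocorticoid-response genes, Fkbp5 encodes a co-chaperone that lowers hormone binding by the glucocorticoid receptor. Probe set 1416125_at had log2 values of 6.27, 4.54, 7.54 and 6.55 on the CoCl2 arrays, against 3.85, 3.75, 3.84 and 3.89 on the control arrays. All 4 CoCl2 arrays lay above all control arrays, by at least 0.65, and they spread far more. The mean was 6.22 ± 1.25 in the CoCl2 group and 3.83 ± 0.06 in the control group (SD, n = 4 each). The log2 difference of 2.39 had a standard error of 0.52 and a 95% interval from 1.21 to 3.57 (limma adjusted p = 0.0064). It was larger than 99.4% of the differences of all tested probe sets with their sign, and larger than 96.6% of them by absolute size. The SD of the CoCl2 arrays was larger than that of 99.1% of 3365 probe sets within 0.5 of its mean level, while the SD of its control arrays was larger than that of only 1.87% of them. Without CoCl2 replicate 2, the lowest of its group, the difference was 2.95, and without replicate 3, the highest, it was 1.95, past the threshold in both cases. These fits used the same spread for both groups. The standard error, interval and adjusted p therefore do not allow for the unequal SDs.

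The second Fkbp5 probe set, 1448231_at, stayed near the bottom of the scale. It had log2 values of 2.57, 2.61, 3.18 and 2.58 on CoCl2 arrays, against 2.59, 2.56, 2.63 and 2.59 on control arrays. One array, CoCl2 replicate 3, stood above the others, and it is also the array with the highest value of 1416125_at. In a fit without the filter the log2 difference of 1448231_at was 0.14, with a 95% interval from -0.19 to 0.48 (limma adjusted p = 0.476), and it was -0.0043 without that array. In that fit, over 45037 probe sets, 17.7% passed, and of the 13 members again only Fkbp5 1416125_at and Cry1 did (adjusted p = 0.0328 and 0.0467 in limma).

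Tsc22d3 encodes GILZ, a leucine zipper protein that carries part of the anti-inflammatory action of glucocorticoids. Its probe set 1420772_a_at had the highest level of all members. The log2 values were 10.36, 9.98, 10.87 and 10.89 with CoCl2, against 10.32, 10.06, 10.27 and 9.52 in controls. The groups overlapped, because CoCl2 replicate 2 lay below 3 control arrays. The value 10.87 of CoCl2 replicate 3 was read from a spreadsheet day number. The log2 difference was 0.48 (SE 0.26, 95% interval -0.10 to 1.07, limma adjusted p = 0.151). The other probe set, 1425281_a_at, gave 7.77, 7.27, 8.33 and 8.20 with CoCl2, against 8.50, 7.90, 8.04 and 7.56 in controls. Its log2 difference was -0.11 (SE 0.27, 95% interval -0.73 to 0.51, limma adjusted p = 0.769), so neither probe set of Tsc22d3 passed the test. The intervals of both leave out a change as large as the estimate for Fkbp5.

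Per1 and Per2 encode repressors of the clock, and Per1 is also induced directly by glucocorticoids. Per1 (1449851_at) had log2 values of 3.51, 2.80, 3.84 and 3.04 with CoCl2, against 2.78, 2.58, 2.75 and 2.65 in controls. The groups did not overlap, but the lowest CoCl2 array was only 0.014 above the highest control array. The means were 3.30 ± 0.47 with CoCl2 and 2.69 ± 0.09 in controls (SD, n = 4 each), and the log2 difference was 0.61 (SE 0.22, 95% interval 0.10 to 1.11, limma adjusted p = 0.0519). This call depended on the processing, since the adjusted p in limma was 0.0349 after quantile normalization, 0.107 in the fit without the filter and up to 0.12 with 1 array left out. Of the 8 tested members, Fkbp5 1416125_at, Arntl and Per1 had no overlap between the groups, as did 45.5% of all tested probe sets. Per2 (1417602_at) lay at 2.69, 2.68, 2.84 and 2.67 with CoCl2, against 2.64, 2.70, 2.75 and 2.62 in controls. At this level, below the filter, its log2 difference was 0.045, with a 95% interval from -0.07 to 0.16 (limma without the filter, adjusted p = 0.528).

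Cry1 encodes the other core repressor, which holds CLOCK and BMAL1 inactive late in the cycle. Probe set 1433733_a_at had log2 values of 5.64, 6.41, 6.52 and 6.49 with CoCl2, against 5.38, 5.70, 4.99 and 5.48 in controls. CoCl2 replicate 1 lay just below the highest control array, and the other CoCl2 arrays lay above all controls. The means were 6.26 ± 0.42 with CoCl2 and 5.39 ± 0.30 in controls (SD, n = 4 each). The log2 difference was 0.88 (SE 0.24, 95% interval 0.34 to 1.41, limma adjusted p = 0.0158). After quantile normalization it was 0.57 and no longer past the threshold (limma adjusted p = 0.0848). Its difference was larger than 81.2% of those of all tested probe sets with their sign, and larger than 69.2% of them by absolute size. Bhlhe40 encodes DEC1, an E-box repressor that is also known as a target of hypoxia-inducible factors. Its probe set 1418025_at gave 4.15, 4.84, 4.24 and 4.02 with CoCl2, against 3.99, 4.23, 3.52 and 3.99 in controls. These groups overlapped, and the log2 difference of 0.38 did not pass (SE 0.22, 95% interval -0.12 to 0.88, limma adjusted p = 0.18).

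**Figure D2:**
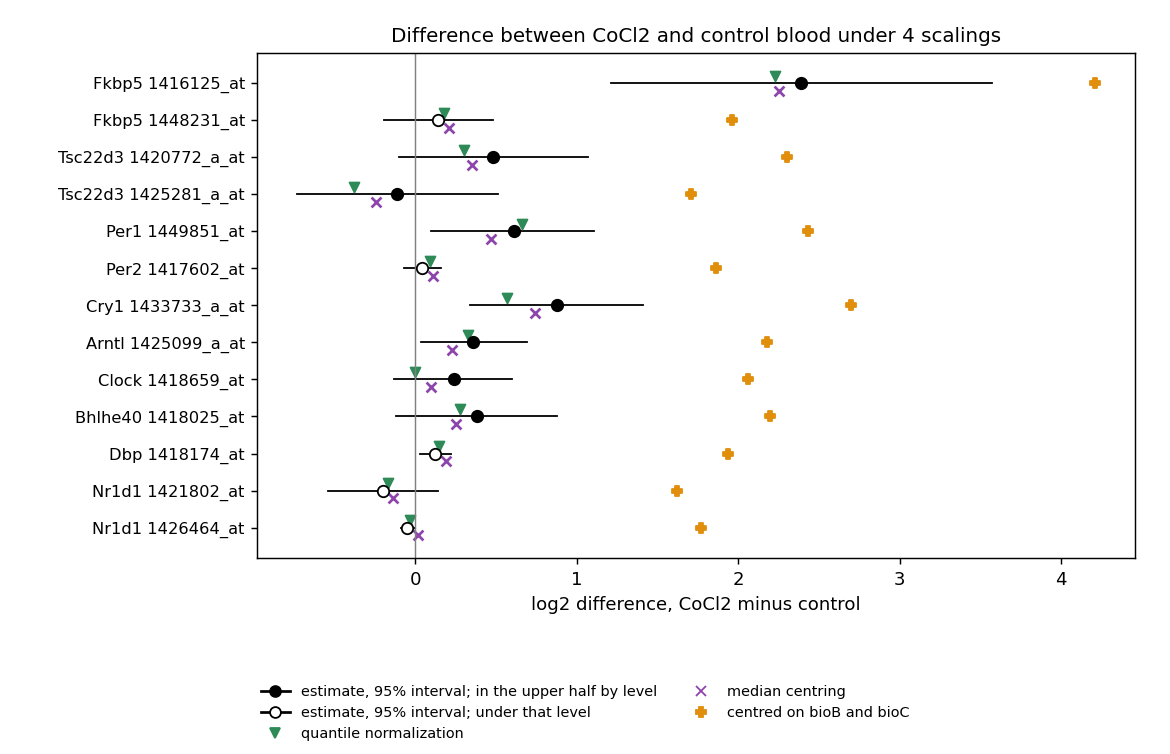
Log2 difference, CoCl2 minus control, of each of the 13 probe sets (horizontal axis), with the 95% interval as a line and the value under 3 other scalings as coloured symbols. Fkbp5 1416125_at stood at 2.39 and Cry1 at 0.88. Centring on the bacterial controls moved all estimates up, to between 1.62 and 4.21.

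Clock and Arntl encode the activators of the loop, and neither passed the test. Arntl (1425099_a_at) had log2 values of 3.92, 4.17, 4.19 and 3.79 with CoCl2, against 3.73, 3.68, 3.45 and 3.75 in controls. All CoCl2 arrays were above all control arrays, the nearest by 0.045. The log2 difference was 0.36 (SE 0.15, 95% interval 0.036 to 0.69, limma adjusted p = 0.0674). Without CoCl2 replicate 4 it was 0.44 and passed (limma adjusted p = 0.0422). Clock (1418659_at) had values of 5.27, 5.02, 5.31 and 5.26 with CoCl2, against 4.67, 5.30, 4.99 and 4.97 in controls. The groups overlapped through CoCl2 replicate 2 and control replicate 2. The log2 difference of Clock was 0.24 (SE 0.16, 95% interval -0.13 to 0.60, limma adjusted p = 0.248), and -0.0032 after quantile normalization. The median shift was 0.19 over all tested probe sets and 0.41 over the upper 25% by mean, which include Clock.

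Dbp, the output factor, and Nr1d1, the repressor of Arntl, lay near the bottom of the scale. Dbp (1418174_at) was at 2.64, 2.64, 2.65 and 2.52 with CoCl2, against 2.46, 2.47, 2.47 and 2.57 in controls. Replicate 4 departed from the rest in both groups, downward with CoCl2 and upward in controls. The log2 difference was 0.12, with a 95% interval from 0.028 to 0.22 (limma without the filter, adjusted p = 0.0796). Nr1d1 (1426464_at) was at 2.24, 2.28, 2.28 and 2.27 with CoCl2, against 2.32, 2.32, 2.32 and 2.31 in controls. The groups did not overlap, as in 34% of all mouse probe sets, but the difference of -0.049 was small (95% interval -0.09 to -0.0033, limma without the filter, adjusted p = 0.126). Only 5.57% of all probe sets had a lower mean level. The remaining probe set, 1421802_at, is listed under Nr1d1, an assignment that is in doubt, and its values are given for the probe set alone. It had 2.57, 2.54, 2.59 and 2.47 with CoCl2, against 2.50, 2.74, 2.56 and 3.17 in controls, where replicate 4 stood highest. Its log2 difference was -0.20 (95% interval -0.54 to 0.14, limma without the filter, adjusted p = 0.345). The calls at these levels depended on the processing. Dbp passed in 7 of 15 alternatives, for example with an adjusted p of 0.026 in limma after median centring, and Nr1d1 1426464_at passed as lower in limma with a trended robust prior (adjusted p = 0.0169). At levels so near the bottom of the scale, failure to pass does not show that the RNA of Per2, Dbp or Nr1d1 was unchanged.

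**Figure D3:**
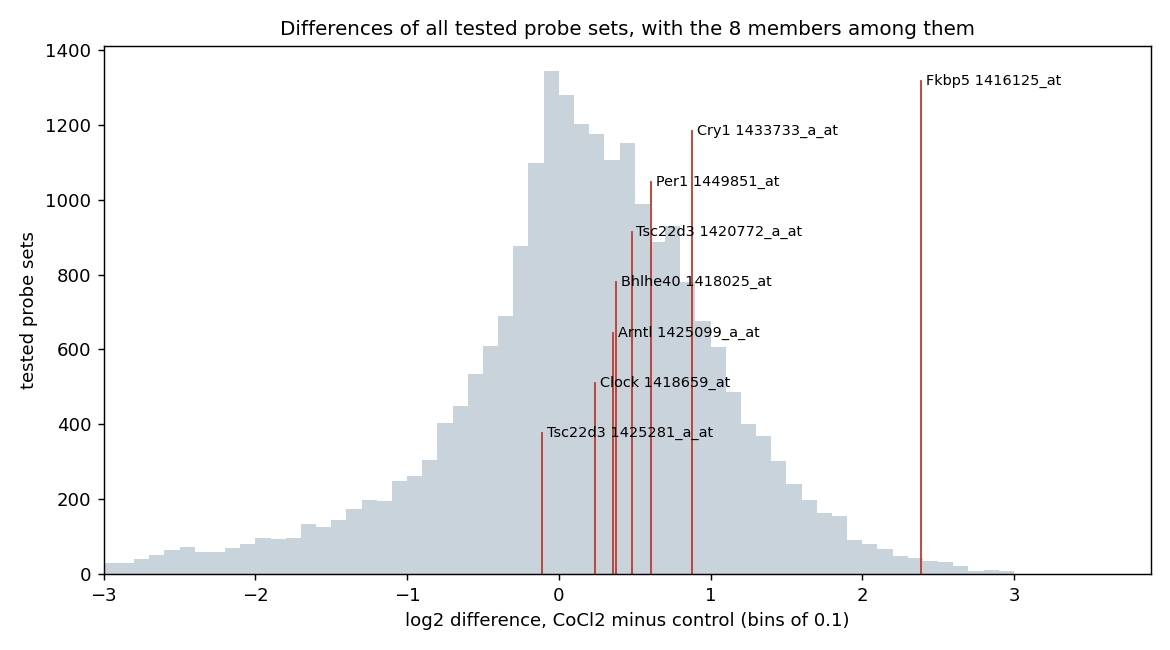
Number of tested probe sets (vertical axis) by log2 difference, CoCl2 minus control, in bins of 0.1 from -3 to 3 (horizontal axis), with red lines at the 8 members that were tested. Fkbp5 1416125_at lies in the upper tail at 2.39, and the other members lie between -0.11 and 0.88, inside the bulk of the distribution.

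Some of the members also varied together among the CoCl2 arrays. CoCl2 replicate 3 had the highest value of its group for 6 of the 8 tested members, whereas over all tested probe sets it was the highest array for 19.8%. Over all 13 members it was the highest for 11, including all 5 under the filter. Those 5 lie near the bottom of the scale, and the share over all probe sets is not given here. Replicate 2 had the lowest value for 5 of the 8 tested members, namely Fkbp5 1416125_at, both Tsc22d3 probe sets, Per1 and Clock, and over all tested probe sets it was the lowest array for 20.2%. Over all 13 members replicates 2 and 4 were each the lowest for 5. Replicate 4 was the lowest for 2 of the 8 tested members and for 36.9% of all tested probe sets. Bhlhe40, Arntl and Cry1 went the other way on replicate 2, by 0.53, 0.15 and 0.14 above their CoCl2 means, and Bhlhe40 was highest there. In the control group no array was highest for more than 4 of the 13 members. The array with the highest Fkbp5, CoCl2 replicate 3, had a median of 2.79 over all probe sets, a beta-actin mean of 12.37 and a Gapdh mean of 10.52, within the range of its group (12.22 to 12.41 for beta-actin and 10.47 to 10.55 for Gapdh). Its bioB and bioC mean of 11.17 was the lowest of the 4 CoCl2 arrays, which reached 11.47. On the control arrays beta-actin was lower, at 11.59 to 11.78, without overlap with the CoCl2 arrays, while Gapdh lay at 10.34 to 10.59. Whether beta-actin, Gapdh or the bacterial RNAs bear on the members' values was not tested. The members share genes and arrays, so these counts are a description.

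**Figure D4:**
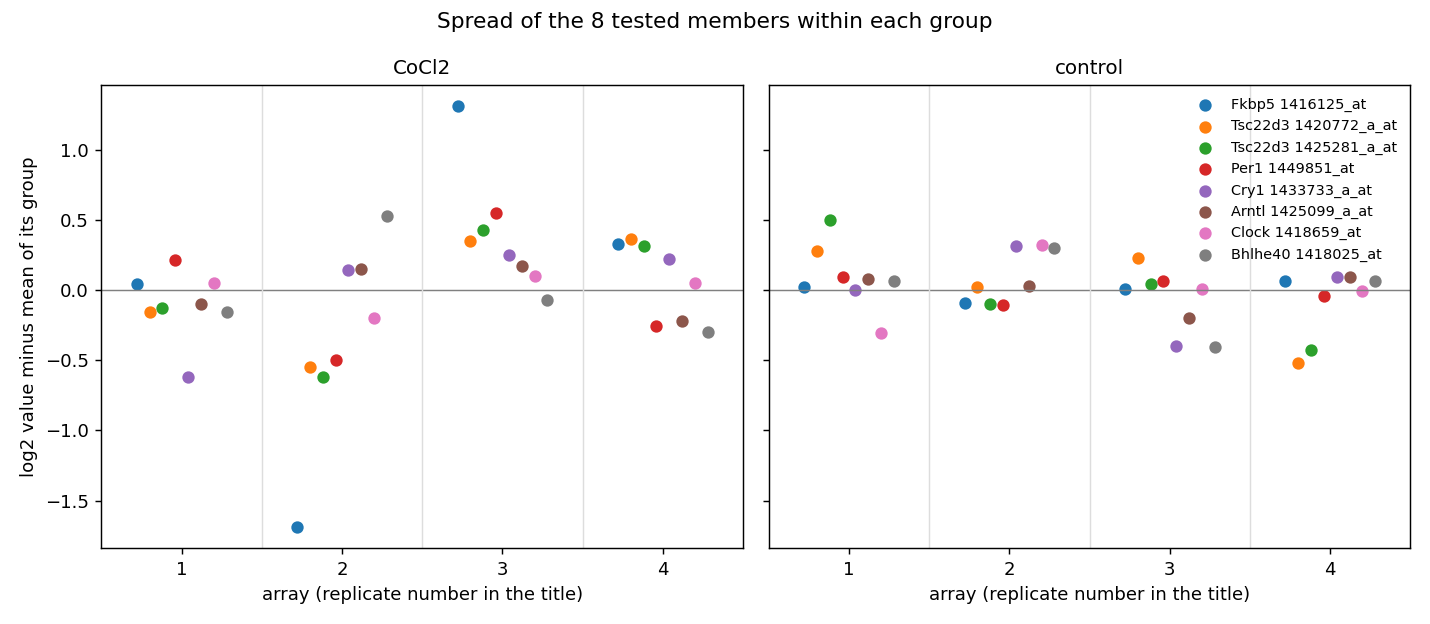
Log2 value minus the mean of its group (vertical axis) for the 8 tested members on each array, with CoCl2 in the left panel and control in the right panel. Fkbp5 1416125_at, Per1 and both Tsc22d3 probe sets lay below their mean on CoCl2 replicate 2 and above it on CoCl2 replicate 3.

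The authors' deposited table holds a comparison by SAM, a method that ranks probe sets by a difference over its error, and lists 9 of the 13 members. In the authors' deposited table, q-values were under 5% for 8 of these 9, all with positive scores, beside 69.1% of all listed probe sets under 5% and 47.6% under 5% with a positive score. The authors' deposited table gives a log2 difference of 2.54 for Fkbp5 1416125_at (q-value 0.00651%), 1.29 for Per1 (q-value 0.00651%) and 1.20 for Cry1 (q-value 0.105%). For Dbp the authors' deposited table has 0.74, while the arrays gave 0.12, so the table was not made from these values as they stand. For Tsc22d3 1425281_a_at the authors' deposited table has -0.06 (q-value 16.5%). Both sources had Fkbp5 1416125_at as the largest difference among the members they list.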

How the data were processed

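Whole-blood RNA was hybridised to 1 Affymetrix array per sample. GCRMA and Partek were used, per the submitters' processing notes, in versions not stated there. Each cell of the deposited value table is a score whose digits are those of log2 values without the decimal point. The point was restored from the digits alone: of 360808 cells, 353402 had 1 digit before it, 6998 had 2, 395 were spreadsheet day numbers (month and year, or day and month of 2009) and 13 stood unchanged. In 1211 cells (0.336%) more than 1 reading was possible. The reading closest to any cell of that row with a single reading was kept, whatever its group. Of such cells in simulated damage, 93.6% were read back within 0.005. The simulated damage followed the same rules as the reading, so it does not test whether those rules match the real damage. That the values are log2 is inferred from their range, 1.64 to 16.15.

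The design assumed log2 values, and the planned test ran on the restored ones. limma 3.58.1 in R 4.3.3 (lmFit and eBayes) fitted CoCl2 minus control over 8 arrays, two-sided, with 64 control probe sets left out. Tested on simulated arrays of CoCl2 against control with 22519 probe sets and 200 changed, it recovered 44% of rises of 1 and 86% of rises of 2 on the log2 scale, 0% of rises of 0.5, and called 5 unchanged ones. In the data 10168 probe sets passed, so the adjustment was stricter in the simulation than in the data. These shares therefore do not give the sensitivity of the test on the real arrays. Median standard error was 0.21, and the number of arrays limits the precision.

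The authors' table gives, per the file headers, a SAM score, a log2 numerator, a fold change as a ratio and a q-value in percent as deposited. Its settings and arrays are not stated.

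Gene names of members come from the list that defines them, not from an array annotation. All members are named. Members and lists were chosen with earlier results of these data known. The planned lists of other clock genes, glucocorticoid-response genes and cell type markers were not analysed, as no table used here pairs their probe sets with genes. Replicate numbers do not pair the arrays: deviations of same-numbered arrays correlated between -0.04 and 0.02. Alternatives were other filters, scalings, priors, array weights, a replicate block, ambiguous cells left missing, limma's treat test, each array left out, and the authors' table.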

Additional observations from a re-analysis of the deposited data

Results flagged for a closer look

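In 26 groups of 4 values (13 members in each group of arrays), 7 held an array far from the other 3. For independent values with a normal spread, chance gives about 1 in 20. The share over all probe sets of these arrays is not given here, so the 7 do not show an excess particular to the members. In the CoCl2 group, replicate 1 had 5.64 for Cry1 against 6.41 to 6.52 on the other arrays, and 2.24 for Nr1d1 1426464_at against 2.27 to 2.28. Replicate 2 had 5.02 for Clock against 5.26 to 5.31. Replicate 3 had 2.84 for Per2 against 2.67 to 2.69, and 3.18 for Fkbp5 1448231_at against 2.57 to 2.61. Replicate 4 had 2.52 for Dbp against 2.64 to 2.65, and in the control group replicate 4 had 2.57 for Dbp against 2.46 to 2.47. Those of Per2, Dbp, Nr1d1 and Fkbp5 1448231_at lie near the bottom of the scale.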

How the results depend on the processing

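Fkbp5 1416125_at was higher with CoCl2 and passed in each of 18 alternatives, the treat test not counted, with differences from 1.95 to 4.21 and adjusted p up to 0.0328 in limma. Cry1 did so in 17 of these 18 and failed after quantile normalization (0.57), where the cause was not tested. No limma fit among them let the spread of a single probe set differ between the groups. For Fkbp5 1416125_at the SD was 1.25 with CoCl2 and 0.06 in controls, and the effect of this on its call was not tested. Per1 passed in 8 of 17 alternatives, and its difference lay between 0.43 and 2.43 in all of them. It is among the tested probe sets only through its CoCl2 arrays, and without the filter its adjusted p was 0.107. Without 1 array at a time, 8022 to 10298 probe sets passed, 5059 to 6424 higher and 2903 to 3874 lower, and 2 to 4 members passed, all higher. The count was 4 without CoCl2 replicate 4, where Arntl and Per1 joined, and 4 with array weights. The replicate block changed the call of Per1 alone among the 8 tested members (limma adjusted p = 0.0486) and left its difference at 0.61. Centring on bioB and bioC gave 21020 probe sets, 20501 higher and 519 lower, and 8 members, all higher. It turned Tsc22d3 1425281_a_at to 1.71, Nr1d1 1426464_at to 1.77 and 1421802_at to 1.62. Median centring turned Nr1d1 1426464_at to 0.019, and quantile normalization Clock to -0.0032. With 1 array left out, Tsc22d3 1425281_a_at ranged from -0.25 to 0.10, above 0 without CoCl2 replicate 2 and without control replicate 1 (0.06), and Fkbp5 1448231_at from -0.0043 (without CoCl2 replicate 3) to 0.20. The treat test against a 1.5-fold minimum, stricter by construction, gave 3086 probe sets, 1637 higher and 1449 lower, and 1 member, Fkbp5 1416125_at, higher. The stricter filter, which tests fewer probe sets, gave 6149, with 1610 lower. The authors' deposited table gave 17184, with 11837 higher, and 8 members, all higher. No member was lower past the threshold in the fits of the filtered table, in the fit without the filter or in the authors' table. Among the members under the filter, fitted over all probe sets, Nr1d1 1426464_at passed as lower with a trended robust prior (-0.049, limma adjusted p = 0.0169), and Dbp passed as higher in 7 of 15 alternatives, with differences from 0.11 to 1.94 over the 15. Alternatives for the lists of other clock and glucocorticoid-response genes were not run, for want of gene names. Per2, Dbp and Nr1d1 lie near the bottom of the scale, which limits what can be seen of them.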
